A study of Homo sapiens with 4 samples.

Results

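Regions bound by the transcription factor BACH1 were collected around 8 genes whose enzymes or stress proteins deal with quinones and reactive carbonyls: NQO1, NQO2, OSGIN1, CBR1, AKR1B10, AKR1C1, AKR1C2 and AKR1C3. A region belonged to a gene when its summit, the point of highest signal, lay in 1 of 6 fixed windows of the hg19 build. AKR1C1, AKR1C2 and AKR1C3 are neighbours and share 1 window. The windows held 23 of the 10246 regions listed for Calu3 and 5 of the 3393 regions listed for 16HBE14o-. They come from chromatin immunoprecipitation sequencing (ChIP-seq), done with a rabbit antibody to BACH1 in 2 human airway lines for which the labels give no treatment or genetic change. Calu3 is a lung adenocarcinoma line and 16HBE14o- an immortalised bronchial epithelial line, and both were grown in DMEM with 10% serum. Each line gave 2 replicates, which the authors joined into 1 list of peaks that ranked reproducibly in both. No value per replicate was used here, so no difference between the lines has a replicate check. How deeply the libraries were sequenced is not known, and each cell type is represented by a single line.

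BACH1 senses haem and, as a dimer with a small MAF protein, represses antioxidant genes. It competes for its sites with NRF2, the activator of the same genes, at a DNA sequence called the antioxidant response element. NQO1, OSGIN1 and several of the aldo-keto reductase genes are well-known NRF2 targets. Apart from OSGIN1, the genes encode enzymes that reduce quinones to hydroquinones or carbonyls to alcohols, at the cost of a reduced nicotinamide cofactor, before these compounds can react with proteins or cycle with oxygen.

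BACH1 regions lay in the windows of NQO1, NQO2 and OSGIN1 in both lines, in those of AKR1B10 and the AKR1C genes in Calu3, and in that of CBR1 in 16HBE14o-. At least 1 region was thus held by 5 of the 6 windows in Calu3 and by 4 of the 6 in 16HBE14o-. Over all bins of 100 kb along the genome, 23.1% held a region in Calu3 and 8.62% in 16HBE14o-, but the windows, 103 to 245 kb long, are placed on genes and the bins are not. Of the 23 Calu3 regions, 4 (17.4%, 95% exact binomial interval 4.95 to 38.8) met a 16HBE14o- region by at least 1 bp, against 15.3% of the whole Calu3 list. Of the 5 regions of 16HBE14o-, 4 (80.0%, 95% exact binomial interval 28.4 to 99.5) met a Calu3 region, against 46.5% of the whole 16HBE14o- list. These intervals cover counting error over regions, which are not replicates. The share in Calu3 was near that of its list, and in 16HBE14o-, with 5 regions, the interval contained the share of the whole list. The 4 pairs accounted for NQO1, NQO2 (2 regions) and OSGIN1.

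**Figure D1:**
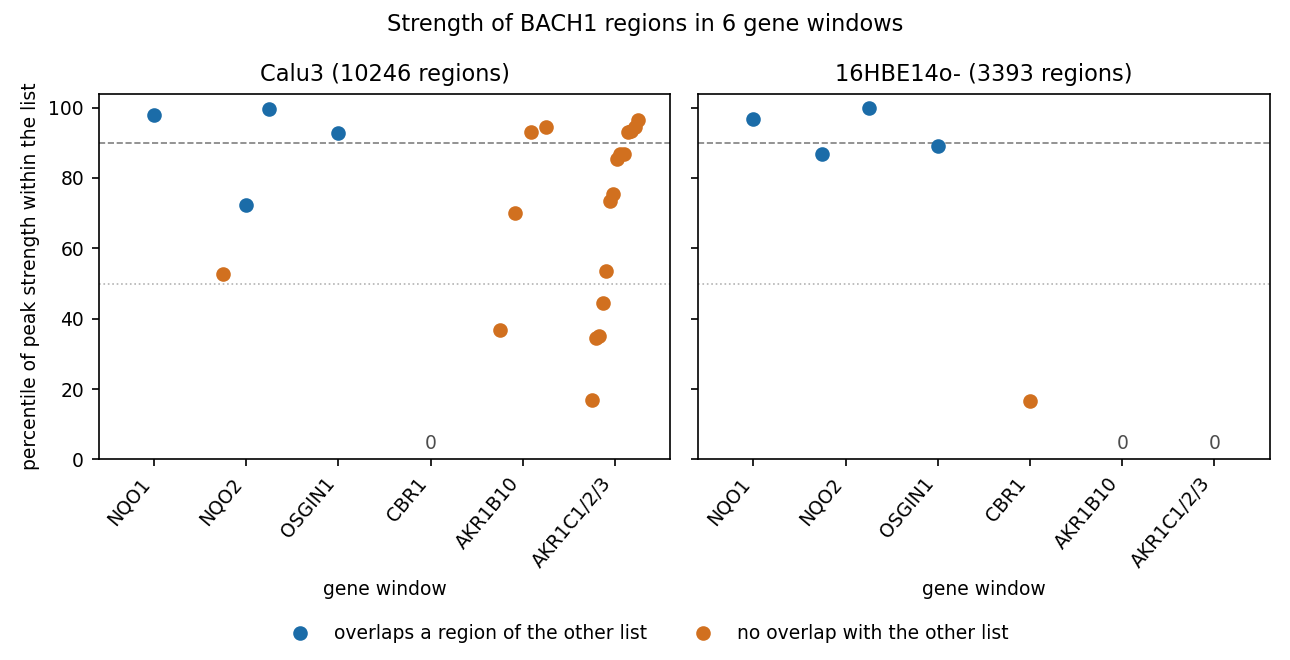
Each point is a BACH1 region in a gene window, placed by its percentile of peak strength within its own list (Calu3 on the left, 16HBE14o- on the right; the dashed line marks the strongest 10% and the dotted line the median). The NQO1 regions and the stronger NQO2 regions lie above the dashed line in both lines, while all 18 regions of the AKR windows are Calu3 regions without an overlapping 16HBE14o- region.

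Peak strength was read differently in the lists. For Calu3 it is the deposited fold enrichment of the peak, and for 16HBE14o- a peak signal on an unstated scale. Each was used only to rank regions within its own list, where rank 1 and percentile 100 mark the strongest. In Calu3 the 23 regions had a median fold enrichment of 8.46, against 4.13 over the list, and a median percentile of 85.4. In 16HBE14o- the 5 regions had a median signal of 65.1, against 30.2 over the list, and a median percentile of 89.02. The strongest 10% of the list held 9 of the 23 regions in Calu3 (39.1%, against 10.0% of the list by construction) and 2 of the 5 in 16HBE14o- (40.0%, against 9.99%). A deposited q under 0.05 was given to 22 of the 23 Calu3 regions (95.7%), against 73.3% of the list.

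Of the 6 windows, that of NQO2 held the highest-ranked region in both lines. NQO2 encodes a quinone reductase that uses dihydronicotinamide riboside rather than NADH or NADPH. Its main region lay on chromosome 6 from 3001979 to 3002415 in Calu3, enriched 28.5-fold and ranked 53, and from 3002151 to 3002331 in 16HBE14o-, with a signal of 277 and rank 4. Their summits were 22 bp apart. A second shared region lay about 22.0 kb further along in both lists. It had a fold enrichment of 5.83 and rank 2850 in Calu3, and a signal of 58.9 and rank 450 in 16HBE14o-, with summits 32 bp apart. The first NQO2 region was the stronger of the pair in both lists. A further Calu3 region, from 2988700 to 2988929, had a fold enrichment of 4.29, near the median of the list, and the nearest 16HBE14o- summit was 13.5 kb away.

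NQO1 had 1 strong region in each line, at the same place. NQO1 encodes the NAD(P)H quinone dehydrogenase that reduces quinones directly to hydroquinones, and it is a standard marker of NRF2 activity. The region lay on chromosome 16 from 69760451 to 69761172 in Calu3, with a fold enrichment of 18.8, rank 230 and a −log10 q of 84.6. In 16HBE14o- it ran from 69760788 to 69761027, with a signal of 105 and rank 112. The summits were 11 bp apart, the closest of the 4 pairs; the median over all shared Calu3 regions was 18 bp. At 722 bp, the Calu3 region was wider than 99.5% of its list, whose median width was 235 bp. The next Calu3 regions outside the NQO1 window were 441 and 628 kb from its edges, and the next of 16HBE14o- were 927 and 475 kb away. Both lists are sparse, with 0.346 regions per 100 kb in Calu3 and 0.117 in 16HBE14o-. These distances were not compared with those around other regions.

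OSGIN1, an oxidative stress-induced growth inhibitor, also had 1 region in each line. It lay on chromosome 16 from 83986504 to 83986896 in Calu3, with a fold enrichment of 11.9, rank 731 and a −log10 q of 42.1. In 16HBE14o- it ran from 83986598 to 83986837, with a signal of 65.1 and rank 373. The summits were 30 bp apart, and the strength corresponded to percentile 92.9 in Calu3 and 89.02 in 16HBE14o-.

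**Figure D2:**
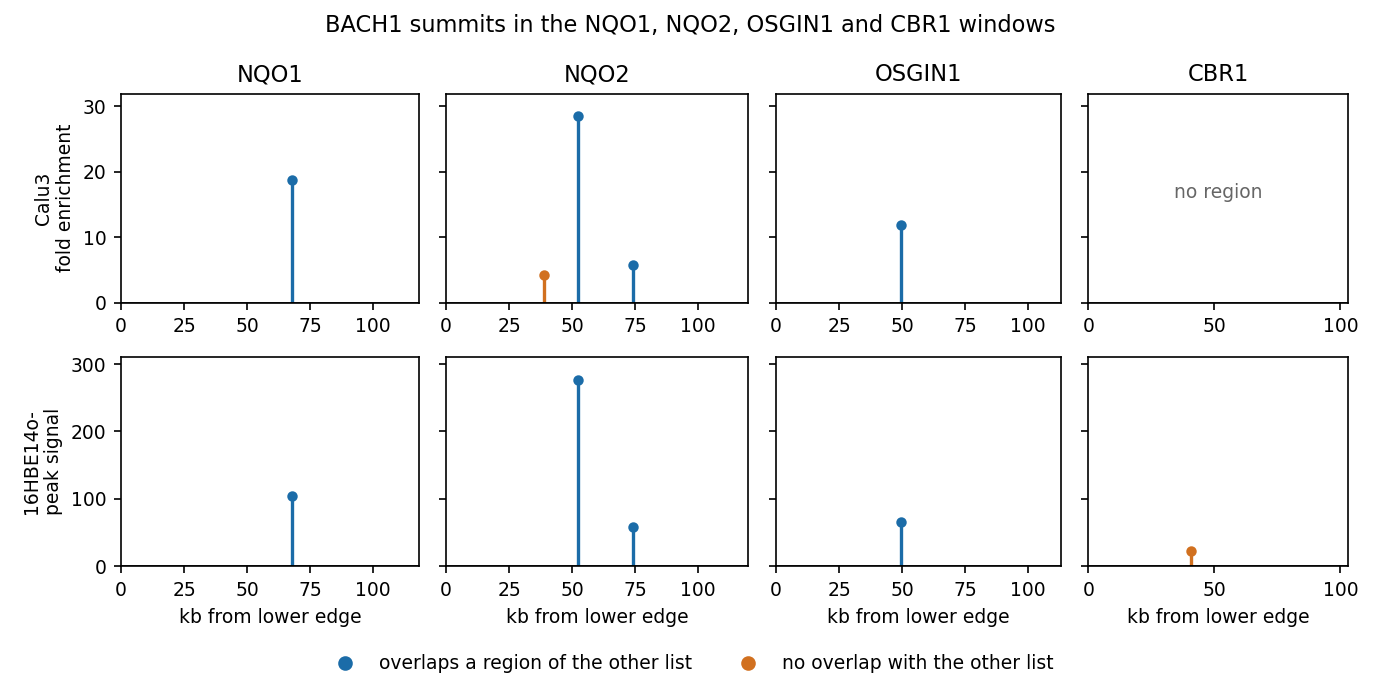
Each stem is a BACH1 summit, at its distance in kb from the lower edge of the window, with its fold enrichment in Calu3 (top) or its peak signal in 16HBE14o- (bottom); the 2 vertical scales cannot be compared. The 4 blue pairs of NQO1, NQO2 and OSGIN1 stand at the same positions in both lists, and the CBR1 window is empty in Calu3.

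CBR1 encodes a carbonyl reductase of broad range, known for reducing prostaglandins and anthracycline drugs. Its window held no region in Calu3 and 1 in 16HBE14o-, on chromosome 21 from 37432758 to 37432997. The region was weak, with a signal of 23.4, rank 2833 and percentile 16.5. The nearest Calu3 summit was 322 kb away. A second 16HBE14o- region, with a signal of 25.5 and rank 2425, lay 11.6 kb beyond the upper edge of the window, on the side where the reference annotation places CBR3, the next carbonyl reductase gene. Both were below the list's median signal of 30.2, and neither met a Calu3 region.

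Promoters of the member genes were searched for letters that BACH1 and its partners are known to bind, since no genome of the peaks' build was used to read the bound regions themselves. RefSeq promoters (GRCh38.p14) were found for 7 of the 8 genes, all but AKR1B10, and the 250 bases before the gene start were searched on both strands. The antioxidant response element core TGACNNNGC was found in CBR1 alone, against 10.9% of all 35116 promoters. Sequence further upstream was not searched, so the lack of a match does not mean that a gene, NQO1 included, lacks the element. The shorter core TGACTCA, which resembles the site of AP-1 transcription factors, was found in OSGIN1 alone, against 4.20% of all promoters. In OSGIN1 this core is preceded by TGC, as in the longer element that MAF proteins are known to bind. That joined form, looked for after the OSGIN1 sequence had been seen, occurs in 0.105% of all promoters. Its variant with the other middle base was in none of the 7, against 0.131% of all promoters. The pair of promoters with a match is shown with the matched letters in capitals, the first because OSGIN1 was bound in both lines and the second because CBR1 had only a weak region.
OSGIN1 (GRCh38.p14, chr16:83952990-83953239, plus strand): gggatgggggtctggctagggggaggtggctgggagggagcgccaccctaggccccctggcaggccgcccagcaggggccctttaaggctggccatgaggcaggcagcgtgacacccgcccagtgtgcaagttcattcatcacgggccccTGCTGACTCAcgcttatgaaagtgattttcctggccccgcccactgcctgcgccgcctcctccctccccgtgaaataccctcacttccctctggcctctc
CBR1 (GRCh38.p14, chr21:36069774-36070023, plus strand): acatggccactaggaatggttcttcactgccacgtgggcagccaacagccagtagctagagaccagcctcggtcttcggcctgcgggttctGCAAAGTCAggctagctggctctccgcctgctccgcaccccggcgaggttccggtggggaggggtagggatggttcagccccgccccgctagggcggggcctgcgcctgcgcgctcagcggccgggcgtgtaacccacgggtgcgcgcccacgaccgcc
The OSGIN1 match begins 100 bases before the gene start, and the CBR1 match, which reads as the core on the opposite strand, begins 159 bases before it. A match describes these letters and does not show a bound site. The coordinates are of another build than the peaks, so the promoters were not placed against the BACH1 regions.

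The aldo-keto reductase windows held many regions in Calu3 and none in 16HBE14o-. AKR1B10 reduces retinal and reactive aldehydes, and AKR1C1, AKR1C2 and AKR1C3 reduce ketosteroids, prostaglandins, quinones and aldehydes. Together their windows held 18 Calu3 regions and no 16HBE14o- region, so none of the 18 could be shared. The windows of NQO1, NQO2, CBR1 and OSGIN1 together held 5 regions in each list, of which 4 in each were shared. The windows were put into these sets after their counts were seen, so the split itself supports nothing. Most Calu3 regions have no counterpart in 16HBE14o-, since 15.3% of the whole list are shared. Of the 18 regions, 6 belonged to the strongest 10% of the Calu3 list.

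In the AKR1B10 window the Calu3 list gave 4 regions on chromosome 7. The first, from 134200655 to 134200970, was enriched 13.1-fold and ranked 576, with a −log10 q of 48.8. The second, from 134211944 to 134212283, was enriched 12.05-fold and ranked 705, with a −log10 q of 35.0. Both were in the strongest 10% of the list, with summits 11339 bp apart. The other regions had fold enrichments of 3.56 (rank 6476) and 5.61 (rank 3058), and all 4 had a q under 0.05.

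Strong binding also lay just outside the AKR1B10 window. A region spanning 134133291 to 134133817 on chromosome 7 lay 28.4 kb below the window and was stronger than any inside it, with a fold enrichment of 34.1 and rank 23 in Calu3. It was shared, with a signal of 91.4 and rank 169 in 16HBE14o-. In the order of protein-coding genes of the reference annotation, AKR1B1, the aldose reductase gene, is next to AKR1B10 on that side. Above the window, 2.8 kb from its edge, a further Calu3 region had a fold enrichment of 7.04 and rank 2092, with no 16HBE14o- region. AKR1B15 follows AKR1B10 on that side in the same order, and its place relative to the window and its regions was not determined here. The 16HBE14o- list thus did hold a strong region near AKR1B10, at 67.2 kb from the closest of the 4 Calu3 summits, but none at the places of those 4.

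The AKR1C window of 245 kb was the densest, with 14 Calu3 regions spread over 206.7 kb of chromosome 10. The strongest, from 5121021 to 5121366, had a fold enrichment of 15.6, rank 377 and a −log10 q of 61.1. It was followed by the region from 5062387 to 5062767, enriched 13.2-fold and ranked 564, and that from 4983750 to 4984070, enriched 12.3-fold and ranked 674. The region from 5113891 to 5114348 had a fold enrichment of 12.03 and rank 707, but rank 383 by its p-value. These 4 regions were all in the strongest 10% of the list. A further 3 regions had fold enrichments from 8.46 to 8.92 and ranks from 1339 to 1499, and the other 7 had fold enrichments from 2.91 to 6.32. A q under 0.05 was given to 13 of the 14; the exception, from 5189455 to 5189647, had a −log10 q of 0.995.

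The AKR1C regions lay in groups. The median distance between neighbouring summits was 6.46 kb, 4 of the 13 distances were under 2 kb and the longest was 55.8 kb. The strong region at 5113891 was flanked by weaker ones with summits 479 bp below and 628 bp above it, with fold enrichments of 2.91 and 3.51. The last pair of the window was 1092 bp apart. With summits within 2 kb counted once, a setting chosen after seeing the data, 14 regions remained in the AKR windows together, against 18. The 100 kb from 5100001 to 5200000 held 7 Calu3 regions, a number reached in 20 of 30815 such bins along the genome (0.0649%). With summits within 2 kb counted once, this bin held 4, a number reached in 161 bins. The 100 kb bins before it, from 4900001 and from 5000001, held 3 and 4 regions, which 655 and 230 bins reached. The nearest 16HBE14o- regions lay 208 kb below and 931 kb above the AKR1C window, with signals of 29.8 and 25.6, both under the median of that list. Both met a Calu3 region, of rank 5058 and 6173 in the Calu3 list.

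**Figure D3:**
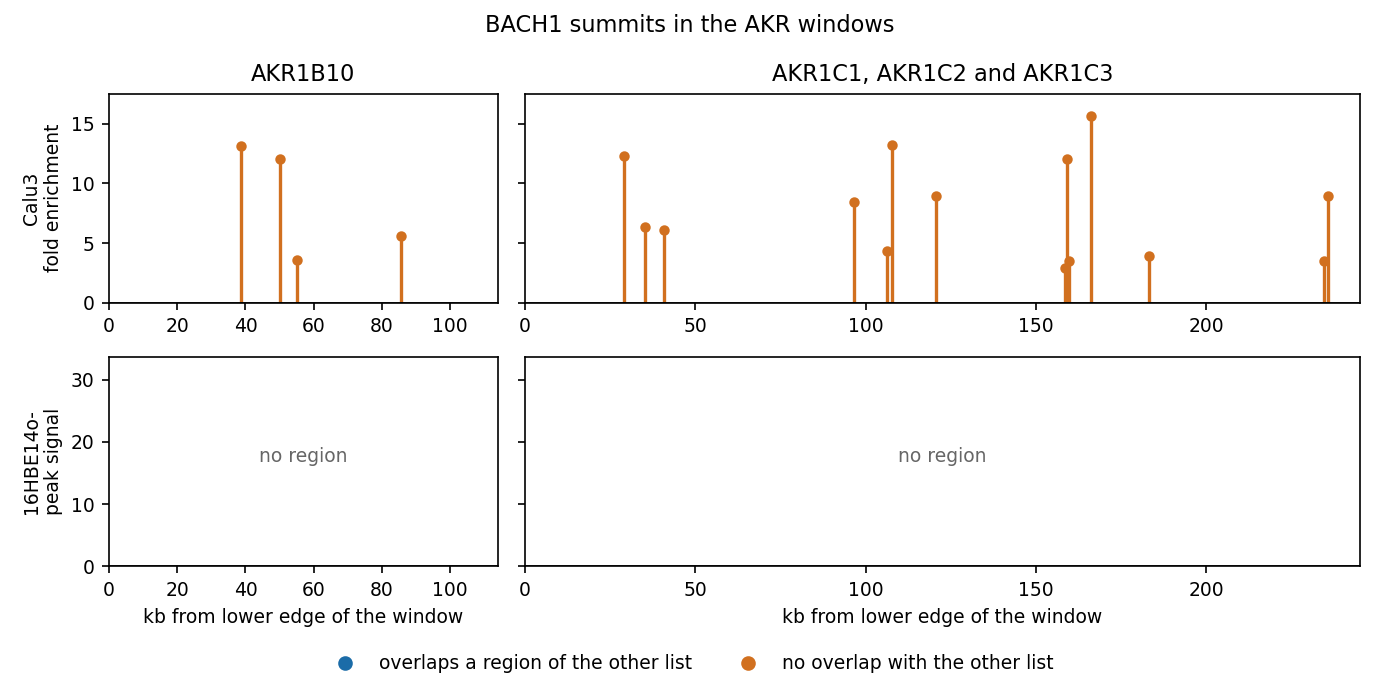
Each stem is a BACH1 summit at its distance in kb from the lower edge of the AKR1B10 or AKR1C window, with its fold enrichment in Calu3 (top) or peak signal in 16HBE14o- (bottom). The Calu3 list holds 4 and 14 summits in these windows, and the 16HBE14o- list holds none in either.

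The AKR1C genes are close copies of each other, which bears on where reads can be placed. The 250 bases before the starts of AKR1C1 and AKR1C2, on opposite strands, were identical at 245 of 246 aligned bases (99.6%). AKR1C3 has 2 promoter entries. The first shared 79.1% of 239 aligned bases with AKR1C1 and 79.6% of 235 with AKR1C2, and the other was not aligned. The near-identical pair is shown so that the copies can be compared.
AKR1C1 (GRCh38.p14, chr10:4963165-4963414, plus strand): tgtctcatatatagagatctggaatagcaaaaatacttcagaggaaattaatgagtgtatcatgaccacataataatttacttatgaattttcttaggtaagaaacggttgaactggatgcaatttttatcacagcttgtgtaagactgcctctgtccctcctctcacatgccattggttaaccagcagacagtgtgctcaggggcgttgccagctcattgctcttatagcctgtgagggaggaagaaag
AKR1C2 (GRCh38.p14, chr10:5003858-5004107, minus strand): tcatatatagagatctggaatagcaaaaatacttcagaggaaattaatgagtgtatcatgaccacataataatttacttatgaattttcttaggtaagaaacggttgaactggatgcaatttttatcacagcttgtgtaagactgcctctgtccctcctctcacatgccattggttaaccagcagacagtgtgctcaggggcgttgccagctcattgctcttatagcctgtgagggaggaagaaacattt
No capitals are given in these, because none of the searched motifs occurred in them. How reads that fit several copies were treated is not given in the sources used here. The placement of regions in copied sequence is uncertain for that reason, and none of the 14 regions is attributed to a single AKR1C gene.

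Divided by window length, the same counts give a density. Calu3 had 5.71 regions per 100 kb in the AKR1C window and 3.51 in the AKR1B10 window, against 0.346 over the span of its list. In the NQO2 window there were 2.50 per 100 kb in Calu3 and 1.67 in 16HBE14o-, whose whole list had 0.117. The windows of NQO1 and OSGIN1, with 1 region each, had 0.847 and 0.885 per 100 kb in both lines. The CBR1 window, with 0 in Calu3 and 0.971 in 16HBE14o-, went the other way from the AKR windows. Over all 6 windows, 813 kb in all, the values were 2.83 in Calu3 and 0.615 in 16HBE14o-. The lists average over stretches without genes as well, so the densities compare these windows with the genome and not with other genes.

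**Figure D4:**
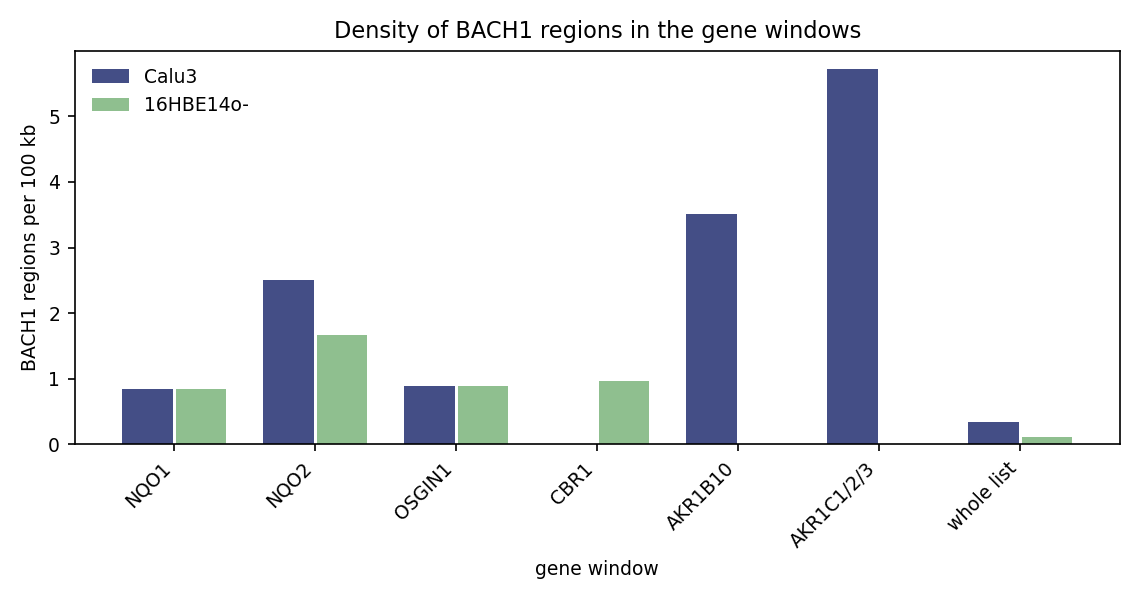
Bars give the number of BACH1 regions per 100 kb of each gene window and over the span of each whole list, for Calu3 (dark) and 16HBE14o- (light). The AKR1C window reaches 5.71 per 100 kb in Calu3 and 0 in 16HBE14o-, while NQO1 and OSGIN1 have equal bars.

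Several measures that differ between the lists stand beside the contrast at the AKR windows. Chromosome 10 held 4.55% of the Calu3 regions (95% exact binomial interval 4.15 to 4.97) and 2.56% of those of 16HBE14o- (95% interval 2.06 to 3.15). Chromosome 7 held 5.95% in Calu3 (5.50 to 6.43) and 4.66% in 16HBE14o- (3.97 to 5.42). Chromosome 21, where CBR1 lies, held 0.820% in Calu3 (0.654 to 1.01) and 1.62% in 16HBE14o- (1.22 to 2.11). The shares also differed on the chromosomes of NQO2, NQO1 and OSGIN1, whose windows held regions in both lists. Chromosome 6 held 5.46% in Calu3 (5.02 to 5.91) and 7.57% in 16HBE14o- (6.71 to 8.52). Chromosome 16 held 1.93% in Calu3 (1.68 to 2.22) and 3.51% in 16HBE14o- (2.91 to 4.18). Of the deposited rows, 98.4% were exactly 240 bp wide in 16HBE14o-, against 0.478% in Calu3. The Calu3 list was longer, at 10246 regions against 3393. The Calu3 list was also restricted to its 3393 strongest regions, a setting chosen after seeing the data. Of the 18 regions of the AKR windows, 12 stayed in it, against 3393 of all 10246 by construction. That cut matched the number of regions and not the depth or the calling of peaks. The parts of chromosome shares and of list length in the contrast were not tested. Differences in binding and in the making of the lists cannot be told apart, since each line is 1 pooled list. Since depth is unknown, a region missing from a list counts as not detected, not as unbound.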

How the data were processed

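BACH1 ChIP-seq of 2 Calu3 and 2 16HBE14o- samples was analysed from 1 deposited peak list per line. Per the labels, each list holds peaks kept by the irreproducible discovery rate (IDR) over both replicates. The build is hg19, per the submitters' processing notes and the file headers. The aligner, the caller and any control are not given in those sources. The authors deposited for each Calu3 peak a fold enrichment, read as such from the format and values, the −log10 p and −log10 q, and a browser score. For 16HBE14o- they deposited a peak signal on an unstated scale, a browser score and a further score, from −0.136 to 3.34, whose meaning is not stated.

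Overlapping rows were merged (3415 rows to 3393 regions in 16HBE14o-, 10246 in Calu3). Members were regions whose summit lay in these windows, in kb: NQO1 chromosome 16, 69693 to 69811; NQO2 chromosome 6, 2950 to 3070; AKR1B10 chromosome 7, 134162 to 134276; AKR1C genes chromosome 10, 4955 to 5200; CBR1 chromosome 21, 37392 to 37495; OSGIN1 chromosome 16, 83937 to 84050. Every region in them is reported, all 8 genes are named, and a neighbouring gene is named only from the order of genes in RefSeq (GRCh38.p14). The members, windows and lists were chosen with earlier results of these data known. No p-value was computed. Shares carry 95% exact (Clopper-Pearson) intervals. Other genes of the pathway were not analysed here, for want of an annotation of the peaks' build. Python 3.11.15, numpy 2.4.6, scipy 1.17.1 and pandas 2.3.3 were used, and the matching and merging were tested on simulated lists.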

Additional observations from a re-analysis of the deposited data

How the results depend on the processing

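Of 66 recomputed summary values, 60 stayed within 1.5 times the reported count, or within the 95% binomial interval of the reported share or median percentile, and 6 did not. The intervals of the shares are wide, so falls from 80.0% to 40.0% and from 17.4% to 8.70% counted as staying. Some counts could not change, such as those of Calu3 with rows not merged, since no Calu3 rows overlapped. The 60 therefore do not measure how stable the results are. Moving the window edges out by 50 kb gave 1 region of 16HBE14o- in the AKR windows, the shared one 28.4 kb below AKR1B10. The other 7 settings gave 0. Those that narrow the windows, shorten or join the list, or change only the Calu3 list could not have added a region. With both lists halved by strength (the upper 50%), 100% of the 4 remaining 16HBE14o- regions were shared, as the weak CBR1 region falls out. The share over the whole 16HBE14o- list also rose, from 46.5% to 57.7%. The median percentile of the Calu3 regions was 80.08 when ranked by p and 80.06 when ranked by q. That of the 16HBE14o- regions was 76.3 when ranked by the browser score and 84.5 by the score in the ninth column. In that column 4 of the 5 hold the highest value, which 30.9% of all rows of the list share. For percentiles, the binomial interval took the whole list as its sample size. It is therefore narrow and does not measure how stable the rank of a region is. Of 56 recomputed percentiles of single regions, 51 left it, among them NQO1 in Calu3, which went from 97.8 to 98.3 when ranked by p. Calu3 regions moved by −12.5 to 11.96 points when ranked by p, and 16 of the 18 in the upper 50% stayed there. By browser score, where strong peaks tie at the maximum, the 4 shared 16HBE14o- regions all came to 76.3, against 99.9 for NQO2 and 96.7 for NQO1 by signal, and CBR1 to 0.60, against 16.5. A reciprocal overlap of 50% left 2 of 23 Calu3 regions shared (8.70%) and 2 of 5 in 16HBE14o- (40.0%). Under the same rule the share of the whole list was 12.6% in Calu3 and 38.049% in 16HBE14o-. The pairs that fell short were NQO1, 722 bp wide in Calu3 and 240 bp in 16HBE14o-, and the main NQO2 region, 437 and 181 bp wide. Their summits were 11 and 22 bp apart. No paired analysis was possible because both replicates of a line sit in 1 list, and none could be left out. Unknown depth limits every statement that a region is missing from a list.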

Other observations

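Regions below the OSGIN1 and NQO2 windows, chosen after their positions were seen, add 2 shared sites. Shared regions further out from other windows are not counted among them. Below the OSGIN1 window, by 67.2 kb, a region on chromosome 16 from 83869600 to 83869971 had a fold enrichment of 11.1 and rank 845 in Calu3, close to the value at OSGIN1, and a signal of 27.9 and rank 2031 in 16HBE14o-. MLYCD is the next protein-coding gene on that side of OSGIN1 in the reference order. Below the NQO2 window, by 72.1 kb, a shared region on chromosome 6 ranked 2037 in Calu3, and in 16HBE14o-, where it ran from 2877786 to 2878025, it had a signal of 35.8 and rank 1174. An additional Calu3 region 17.3 kb below the NQO2 window, with a fold enrichment of 7.30 and rank 1953, met no 16HBE14o- region. SERPINB6 and SERPINB9, serine protease inhibitor genes, are the next genes on that side of NQO2.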
